A study of Homo sapiens with 6 samples.

Results

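The MYC, MAX and MXD network is a set of transcription factors that share MAX as their common partner. The members described here were the genes of the count table named MYC, MYCL, MYCN, MAX, MXD1, MXD3, MXD4, MXI1, MNT and MGA, which are 10 of the 58735 genes listed. MYC, MYCL and MYCN pair with MAX, bind the E-box and are known to activate genes of cell growth, ribosome production and metabolism. MXD1, MXD3, MXD4, MXI1 and MNT pair with MAX as well, and at the same DNA element they recruit the SIN3 corepressor and repress. MGA is a large MAX partner of a noncanonical Polycomb complex, and the gene table files it as a T-box factor and the other 9 members as bHLH factors. In many tissues MXD1 and MXD4 are known for rising as cells leave the cycle and differentiate, whereas MXD3 is known for its expression in cycling cells during S phase.

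RNA-Seq was performed on MCF10A, an established human breast epithelial line that is not malignant, to ask how the transcriptome changes when DAB2IP, a Ras GTPase-activating protein, is lost. Cells of the 3 siDAB2IP libraries had received siRNA against DAB2IP and cells of the 3 siControl libraries a nontargeting pool, and RNA was taken 48 hours later. Both groups grew in the same medium with horse serum, insulin, epidermal growth factor, cholera toxin and hydrocortisone. The design holds a single cell line and no second siRNA reagent or rescue is given in the labels, so effects of the siRNA other than through DAB2IP cannot be told apart from the knockdown.

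The libraries held 16353783 to 21916062 counts (median 17426121.5), and a gene at 0 may hide up to 3 counts, which is 0.139 to 0.187 CPM and reflects counting error alone. CPM is the count relative to the library total after the trimmed-mean (TMM) scaling of edgeR, and a gene is called where the adjusted p of the edgeR quasi-likelihood test over all 15430 genes tested was under 0.05. Of these genes, 14.2% were called, 6.55% higher and 7.65% lower in siDAB2IP, and the median log2 fold change over all of them was 0.0090. DAB2IP itself was at 103, 94.2 and 77.4 CPM in siControl and at 27.5, 25.6 and 22.4 CPM in siDAB2IP. Its log2 fold change was −1.86 (SE 0.13, edgeR adjusted p = 9.71e-05), so the libraries followed their labels. All 8 mammary epithelial markers checked were expressed, with a lowest mean of 49.5 CPM. Of the 8, KRT5 (3532 to 1800 CPM), KRT14 (2186 to 765 CPM) and KRT17 (813 to 560 CPM) were called lower (37.5%). Another 1 of the 8 was called higher (12.5%), and 4 were not called. The log2 fold change was positive for 3 and negative for 5, with a median of −0.47. Among 9 markers of hormone receptor-positive, blood, endothelial and stromal cells, PGR and CD3E were at 0 in all 6 libraries, and the summed CPM of the 9 ranged from 26.2 to 31.6 in siControl and from 32.1 to 39.1 in siDAB2IP. Of the 4 markers that passed the filter, COL1A1, a collagen gene of stromal cells, was called higher (15.3 to 26.3 CPM), and PECAM1, CDH5 and PDGFRB were not called, with log2 fold changes of −0.69, −0.46 and −0.61. PECAM1 was called by edgeR with the replicate block (adjusted p = 0.0499). The part of cell state or makeup in the network's values was not tested. In bulk RNA, fewer cells of a kind and less RNA per cell cannot be told apart.

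The DNA ahead of the members is shown first, because the network is defined by what it binds. RefSeq promoter windows (GRCh38.p14), which run from 250 bases before to 50 after a start, were found for 9 of the 10 members (all but MYC) and for MLX, the MAX-like factor of the parallel network. The E-box CACGTG, which reads the same on both strands, lay in windows of MXD4 and MNT and in that of MLX, and in 7.26% of all 35116 windows. The first pair of sequences belongs to MXD1 and MXD3, the members that were called, and capitals there mark a GC box (GGGCGG, searched on both strands). The other 3 are the surroundings of the E-boxes, in capitals, which lie 238 (MXD4), 193 (MNT) and 50 (MLX) bases before the start. Only bases outside annotated exons are given, each 5′ to 3′ on the strand of its gene, at chr2:69914859-69915040 (plus) for MXD1, chr5:177312758-177313002 (minus) for MXD3, chr4:2262317-2262359 (minus) for MXD4, chr17:2401223-2401278 (minus) for MNT and chr17:42567025-42567067 (plus) for MLX.
MXD1: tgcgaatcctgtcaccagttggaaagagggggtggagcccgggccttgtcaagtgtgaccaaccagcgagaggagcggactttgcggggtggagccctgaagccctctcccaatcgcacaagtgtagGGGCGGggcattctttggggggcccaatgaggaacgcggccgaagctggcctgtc
MXD3: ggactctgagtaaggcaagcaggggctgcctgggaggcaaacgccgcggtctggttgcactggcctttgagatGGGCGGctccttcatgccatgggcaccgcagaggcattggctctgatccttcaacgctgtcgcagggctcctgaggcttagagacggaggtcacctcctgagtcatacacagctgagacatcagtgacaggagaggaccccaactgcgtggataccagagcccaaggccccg
MXD4: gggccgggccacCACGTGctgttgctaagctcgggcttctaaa
MNT: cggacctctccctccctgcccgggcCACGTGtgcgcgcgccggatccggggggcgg
MLX: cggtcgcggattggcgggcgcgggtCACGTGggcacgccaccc

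The windows of MXD1 and MXD3 thus held a GC box, as did 45.0% of all windows, and no CACGTG. No window of a member held the consensus of NF-κB, which was found in 11.3% of all windows. These matches describe the letters of a short window and are not evidence of binding, and MXD1 and MXD3 each have other annotated starts (6 and 9 distinct transcript starts in GENCODE 29) that the windows do not cover.

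Of the 10 members, 9 passed the filter on low counts, and MYCN did not. MXD1 was called higher in siDAB2IP and MXD3 lower, beside 6.55% and 7.65% of all genes called in these directions, and 7 members were not called. The same pair, and no other member, was called when the libraries were scaled by total counts only or with the size factors of DESeq2. For MXD1, MXD3 and MXD4, 3 of the 9, the siControl and siDAB2IP ranges of CPM were separate, which was seen for 35.9% of all genes tested. The median log2 fold change over the 9 members was 0.01, and between −0.01 and 0.03 when a library was left out.

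**Figure D1:**
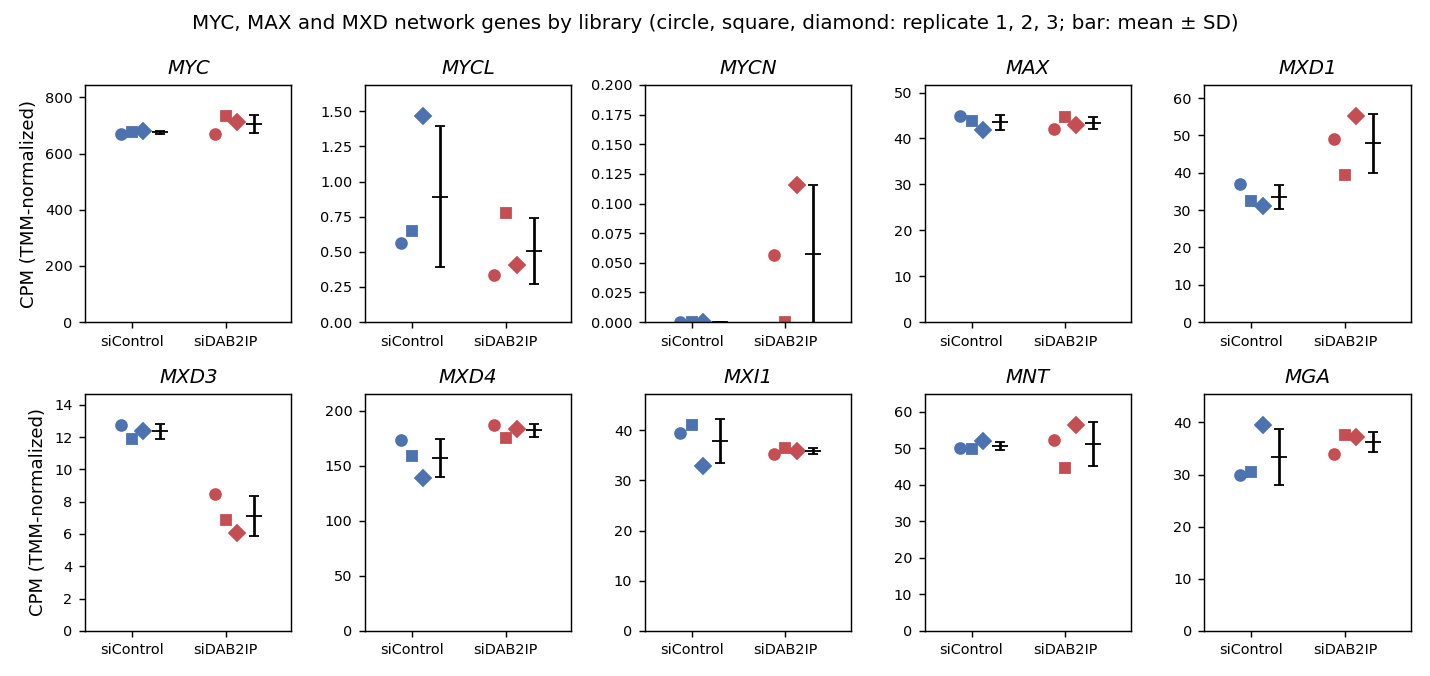
CPM of the 10 members (y axis of each panel, TMM-normalized, starting at 0) in the 3 siControl (blue) and 3 siDAB2IP (red) libraries, with circles, squares and diamonds for replicates 1, 2 and 3 and black bars for mean ± SD. MXD1 lies between 31.1 and 37.0 in siControl and between 39.4 and 55.3 in siDAB2IP, MXD3 between 11.9 and 12.8 and between 6.03 and 8.46, while MYC, MAX and MNT overlap between the groups.

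MXD1, a repressor that pairs with MAX, lies at chr2:69897688-69942945 (plus strand, GRCh38). It was at 37.0, 32.4 and 31.1 CPM in siControl replicates 1, 2 and 3 and at 49.0, 39.4 and 55.3 CPM in siDAB2IP replicates 1, 2 and 3. Every siDAB2IP library lay above every siControl library, with siDAB2IP replicate 2 nearest to the controls. The mean went from 33.5 ± 3.13 to 47.9 ± 7.97 CPM (SD, n = 3 each), a 1.43-fold rise. The log2 fold change was 0.52 (SE 0.14, 95% interval 0.21 to 0.82, edgeR adjusted p = 0.0342). The two-sided exact permutation p was 0.1, the smallest that 3 libraries against 3 allow. The call was lost when any of 4 libraries was left out. The edgeR adjusted p became 0.0645, 0.144 and 0.130 without siControl replicate 1, 2 or 3 and 0.0865 without siDAB2IP replicate 1. The log2 fold changes were then between 0.45 and 0.57. Over all genes, 1186, 723, 1048 and 1514 were called in the same 4 fits, beside 2192 with all libraries.

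MXD3, the family member tied to S phase (chr5:177301461-177312757, minus strand), was at 12.8, 11.9 and 12.4 CPM in siControl replicates 1, 2 and 3. In siDAB2IP replicates 1, 2 and 3 it was at 8.46, 6.87 and 6.03 CPM. The groups did not overlap, the siControl libraries lay within 1 CPM of each other, and siDAB2IP replicate 3 was the lowest. The mean went from 12.3 ± 0.445 to 7.12 ± 1.24 CPM (SD, n = 3 each), which is 1.73-fold lower. The log2 fold change was −0.79 (SE 0.17, 95% interval −1.17 to −0.42, edgeR adjusted p = 0.0139), with a two-sided exact permutation p of 0.1. Without siControl replicate 2 the log2 fold change was −0.84 and the edgeR adjusted p 0.0530.

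Part of the MXD3 transcript model is shared with its neighbors. Of its 5154 exonic bases, 1158 (22.5%) also belong to exons of PRELID1 on the opposite strand and 926 (18.0%) to exons of RAB24 on the same strand. The strand setting used in counting is not given in the sources used here, which leaves the bases shared with PRELID1 in doubt. Reads in the bases shared with RAB24 cannot be told apart by strand under any setting. The CPM and FPKM values of MXD3 are uncertain to that extent. PRELID1, which encodes a mitochondrial lipid transfer protein, was at 59.4, 56.8 and 48.1 CPM in siControl and at 37.8, 49.4 and 17.1 CPM in siDAB2IP (log2 fold change −0.66, edgeR adjusted p = 0.162, and 0.0290 with the replicate number as a block). RAB24, a small GTPase, had a log2 fold change of −0.35 (edgeR adjusted p = 0.133). The log2 difference to the siControl mean in siDAB2IP replicates 1, 2 and 3 was −0.55, −0.85 and −1.03 for MXD3 and −0.54, −0.15 and −1.68 for PRELID1. These values were nearly equal in replicate 1, far apart in replicate 2 and lowest in replicate 3 for both genes. For RAB24 the difference was −0.23, −0.47 and −0.36, lowest in replicate 2, and its groups did not overlap in CPM. The part of the shared bases in the values of MXD3 was not tested. For MXD1 the overlap was small: 237 of 6351 exonic bases (3.73%) are shared with SNRNP27, whose log2 fold change was 0.01. The overlaps of MYCL, MYCN, MAX, MXD4, MXI1, MNT and MGA were with genes that had at most 9 counts in any library.

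A pair of mitotic kinases, chosen after their values were seen, is set beside MXD1 and MXD3. AURKB, a kinase of chromosome segregation, differed from its siControl mean by −1.26, −0.51 and −2.36 on the log2 scale in siDAB2IP replicates 1, 2 and 3, and PLK1, another mitotic kinase, by −1.07, −0.37 and −2.39. AURKB was called by edgeR (adjusted p = 0.0494) and not by DESeq2 (adjusted p = 0.107), and PLK1 by neither (adjusted p = 0.0856 and 0.203), although edgeR called it with the replicate block (adjusted p = 0.0400). The corresponding values of MXD3 were −0.55, −0.85 and −1.03, and those of MXD1 were 0.55, 0.24 and 0.72. Replicate 3 was thus the extreme library for all 4 genes. Replicate 2 was the mildest for AURKB, PLK1 and MXD1 but not for MXD3. Other genes of cell division varied in this respect. AURKA differed by −0.96, −0.45 and −1.36 in siDAB2IP replicates 1, 2 and 3, while SKP2 was nearly level at −0.81, −0.80 and −0.86. The part of cell cycle position in the values of MXD1 and MXD3 was not tested. Without siDAB2IP replicate 3, MXD1 (log2 fold change 0.40, edgeR adjusted p = 0.0453) and MXD3 (−0.69, edgeR adjusted p = 0.0141) were still called.

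**Figure D2:**
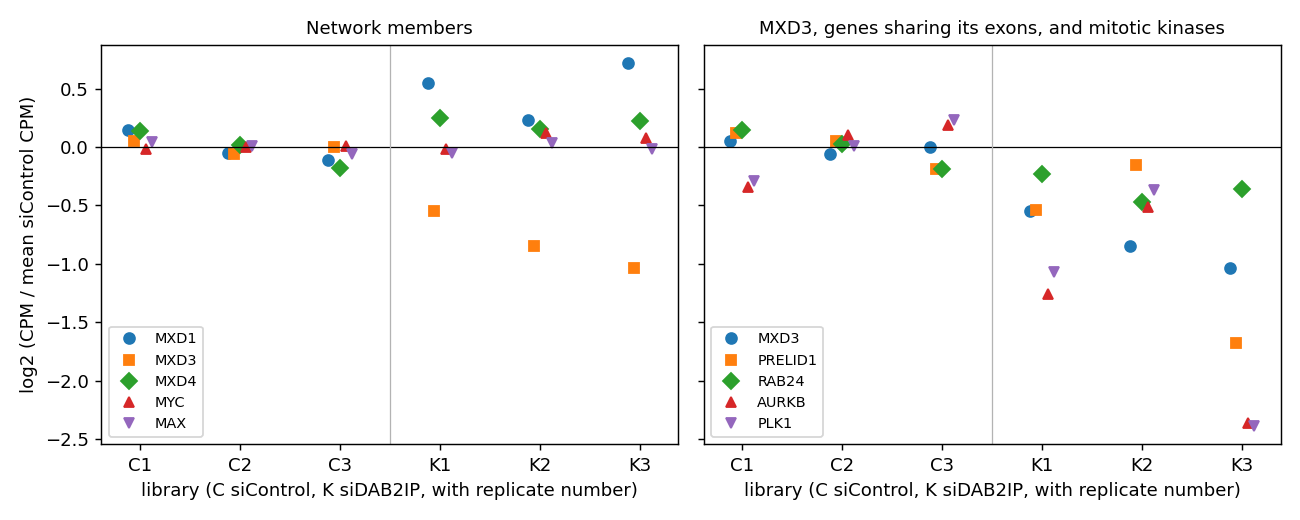
Log2 ratio of each library's CPM to the mean siControl CPM (y axis) for siControl (C1 to C3) and siDAB2IP (K1 to K3) libraries, with network members on the left and MXD3 beside PRELID1, RAB24, AURKB and PLK1 on the right. MXD3 is below 0 in all 3 siDAB2IP libraries (−0.55, −0.85 and −1.03) and MXD1 above 0 (0.55, 0.24 and 0.72), and AURKB and PLK1 drop most in replicate 3.

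Across 15 other ways to process the counts, MXD1 was called in 8, with log2 fold changes between 0.40 and 0.64, and MXD3 in 13, with log2 fold changes between −0.94 and −0.52. Neither changed direction. MXD1 was not called in any of the 3 fits of limma to FPKM, a measure per exonic length of a gene (adjusted p = 0.0647, 0.0654 and 0.166). MXD3 was called in 2 of these 3, and its limma adjusted p was 0.0925 when all genes with a count were kept. The tests with DESeq2 called both (adjusted p = 0.0126 for MXD1 and 0.00173 for MXD3).

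**Figure D3:**
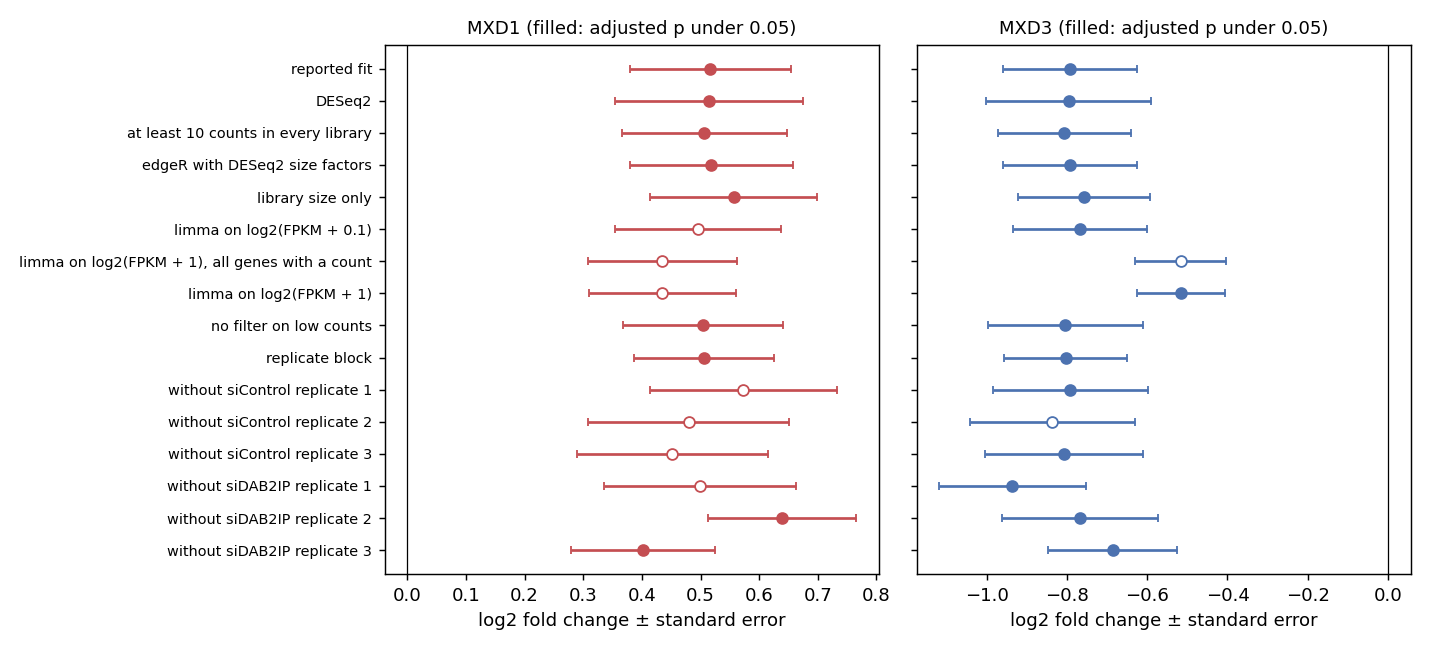
Log2 fold change ± standard error (x axis) of MXD1 (left) and MXD3 (right) in the reported fit and under 15 alternatives (y axis), with filled symbols where the adjusted p was under 0.05. All MXD1 values lie above 0 (0.40 to 0.64) and all MXD3 values below 0 (−0.94 to −0.52), with 8 and 13 alternatives filled.

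MXD4, the repressor with the highest level of the family in these cells (chr4:2247432-2262294, minus strand), was at 173, 159 and 139 CPM in siControl and at 187, 176 and 184 CPM in siDAB2IP. The groups did not overlap, but siControl replicate 1 (173) lay close to siDAB2IP replicate 2 (176). The mean was 157 ± 17.1 against 182 ± 6.04 CPM (SD, n = 3 each), and the difference missed the threshold (log2 fold change 0.21, 95% interval −0.02 to 0.45, edgeR adjusted p = 0.210). The two-sided exact permutation p was again 0.1. MXI1, a further repressor of the MXD family (chr10:110207605-110287365, plus strand), was at 39.5, 41.1 and 32.9 CPM in siControl and at 35.3, 36.6 and 35.9 CPM in siDAB2IP. The siDAB2IP libraries lay inside the siControl range, and the log2 fold change was −0.08 (95% interval −0.33 to 0.18, edgeR adjusted p = 0.702).

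MYC, the activating partner (chr8:127735434-127741434, plus strand), was the most abundant member. It was at 670, 677 and 681 CPM in siControl replicates 1, 2 and 3 and at 669, 734 and 712 CPM in siDAB2IP replicates 1, 2 and 3. The lowest siDAB2IP library was level with the controls and the other two lay above them. The mean was 676 ± 5.64 against 705 ± 33.0 CPM (SD, n = 3 each), and no difference was detected (log2 fold change 0.06, SE 0.10, edgeR adjusted p = 0.746, two-sided exact permutation p = 0.4). The 95% interval of the log2 fold change ran from −0.17 to 0.29, and a change within that range is compatible with these libraries.

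MYCL and MYCN, the tissue-restricted relatives of MYC, were near the detection limit. MYCL had 9, 14 and 25 counts in siControl and 6, 14 and 7 in siDAB2IP. The groups overlapped, and the interval of the log2 fold change was wide (−0.80, 95% interval −1.94 to 0.35, edgeR adjusted p = 0.336). MYCN had 0 counts in all 3 siControl libraries and 1, 0 and 2 counts in siDAB2IP, all under the limit of 3 counts, and no fold change is given.

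MAX, the common partner of the network (chr14:65006174-65102695, minus strand), was at 44.9, 43.8 and 41.8 CPM in siControl and at 42.1, 44.7 and 43.0 CPM in siDAB2IP. The groups overlapped throughout (log2 fold change −0.01, 95% interval −0.22 to 0.20, edgeR adjusted p = 0.967). MNT, a broadly expressed repressor that pairs with MAX (chr17:2384060-2401118, minus strand), was at 50.0, 49.9 and 51.8 CPM in siControl and at 52.2, 44.6 and 56.4 CPM in siDAB2IP. Its siDAB2IP libraries spread to both sides of the controls (log2 fold change 0.01, 95% interval −0.23 to 0.26, edgeR adjusted p = 0.950). MGA (chr15:41621224-41773081, plus strand) was at 30.0, 30.5 and 39.6 CPM in siControl and at 34.0, 37.6 and 37.2 CPM in siDAB2IP. The high siControl replicate 3 covered the siDAB2IP range (log2 fold change 0.12, 95% interval −0.17 to 0.41, edgeR adjusted p = 0.581). The signs of MAX and MNT were not firm. The log2 fold change of MAX was 0.029 with scaling by library size only and 0.0098 without siDAB2IP replicate 1. That of MNT was −0.015 and −0.010 when siControl replicate 1 or 2 was left out, and −0.0024 and −0.063 when siDAB2IP replicate 1 or 3 was.

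**Figure D4:**
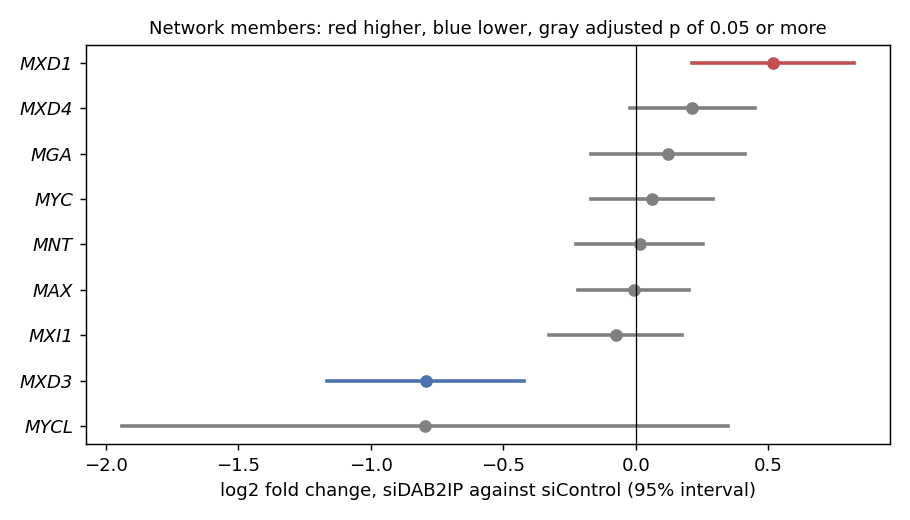
Log2 fold change of siDAB2IP against siControl (x axis, points) with its 95% interval (lines) for the 9 members tested (y axis), red for higher, blue for lower and gray for an adjusted p of 0.05 or more. The interval of MXD1 (0.21 to 0.82) lies above 0 and that of MXD3 (−1.17 to −0.42) below 0, and the other 7 include 0.

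Levels of different members can be compared only per length, and the deposited FPKM was used for this. Its length counts all annotated exons of a gene, whichever transcripts the cells make. The order, shares and ratios given from FPKM rest on that length, and the lengths of the transcripts present could change them. In siControl, MYC was at 223 ± 2.06 FPKM (SD, n = 3) and thus above 99.4% of the genes tested. MXD4 followed at 22.1 ± 2.40 FPKM, MAX at 9.74 ± 0.357 and MXI1 at 8.15 ± 0.946. MNT (5.74 ± 0.118 FPKM) and MXD1 (5.22 ± 0.482 FPKM) overlapped between libraries, and no order is given for them. MXD3 was at 2.37 ± 0.0799 FPKM, MGA at 1.87 ± 0.301, MYCL at 0.175 ± 0.0976 and MYCN at 0. Apart from MNT and MXD1, no neighbors in this order overlapped in their siControl libraries. In siDAB2IP the mean of MXD1 (7.46 ± 1.24 FPKM) ranked above that of MNT (5.79 ± 0.676), and that of MGA (2.03 ± 0.106) above that of MXD3 (1.37 ± 0.239).

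The makeup of the MXD family is given next, as a description without a test. The FPKM of MXD1, MXD3, MXD4 and MXI1 together was 41.0, 38.7 and 33.8 in siControl and 43.2, 39.9 and 43.2 in siDAB2IP, and the groups overlapped. MXD3 made up 6.31% ± 0.622 of this sum in siControl and 3.25% ± 0.548 in siDAB2IP (SD, n = 3 each). MXD1 made up 13.8% ± 0.639 and 17.7% ± 2.26. The ratio of MXD1 to MXD3 FPKM was 2.35, 2.21 and 2.03 in siControl and 4.70, 4.66 and 7.44 in siDAB2IP, without overlap. The ratio combines the members that were called, so its separation adds nothing to their tests. MYC made up 80.1% ± 1.14 of the FPKM of all 10 members in siControl and 79.5% ± 1.21 in siDAB2IP, and the ratio of MYC to MAX was 23.0 ± 1.03 and 24.0 ± 0.537, with overlapping groups for both.

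Next, the genes that work with the network were examined. The lists were made by hand from general knowledge of these pathways, with earlier results of these data known, so the shares called in them are descriptions. In the MLX branch, the parallel network of glucose-sensing factors, 1 of 5 genes was called, higher (20.0%, beside 6.55% of all genes). This was MLX itself, which was at 51.8, 52.5 and 49.6 CPM in siControl and at 62.1, 63.5 and 63.8 CPM in siDAB2IP. The groups did not overlap (log2 fold change 0.30, SE 0.09, edgeR adjusted p = 0.0479), but MLX was called in only 4 of the 15 alternatives and in none of those that left out a library (edgeR adjusted p = 0.0514 to 0.173). Of the exonic bases of MLX, 770 (18.1%) are shared with PSMC3IP on the opposite strand. Its partners MLXIP and MLXIPL had log2 fold changes of −0.13 and −0.37. TXNIP and ARRDC4, arrestins that report on the activity of this branch, had log2 fold changes of −0.07 and 0.53, and none of the 4 was called.

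Among 18 cofactors that MYC uses at its targets, such as histone acetyltransferase and elongation factor subunits, edgeR called none. At an unadjusted p under 0.05 the edgeR counts were 1 higher and 4 lower, DESeq2 called 1 lower (SMARCA4), and limma on FPKM called none. With the replicate number as a block edgeR called 1 higher and 3 lower, namely ZBTB17, through which MYC is known to repress (adjusted p = 0.0569 without and 0.0422 with the block), and RUVBL1, SMARCB1 and SMARCA4, subunits of chromatin remodelers. SMARCA4, the SWI/SNF ATPase, was at 200, 185 and 225 CPM in siControl and at 130, 150 and 178 CPM in siDAB2IP. Its groups did not overlap (log2 fold change −0.41, edgeR adjusted p = 0.0633 without and 0.0167 with the block). The median log2 fold change of the 18 was −0.03, with 0.01 under scaling by library size only and −0.0928 to −0.00838 when a library was left out.

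The MXD proteins repress through the SIN3 complex, of which 3 of 21 genes were called, all lower (14.3%, beside 7.65% of all genes). Its list median was −0.11 on the log2 scale, and −0.0628 without siDAB2IP replicate 3. RBBP4, a histone-binding subunit, was at 102, 113 and 106 CPM in siControl and at 71.5, 70.7 and 74.8 CPM in siDAB2IP, without overlap (log2 fold change −0.57, edgeR adjusted p = 0.0044). ARID4B (−0.44) and SAP30 (−0.65), further subunits, were called as well. SIN3A, the scaffold, had a log2 fold change of −0.40 (edgeR adjusted p = 0.0806, and 0.0263 with the replicate block), whereas SIN3B had 0.13. Without siControl replicate 2 only 1 SIN3 gene was called. The complex in which MGA acts, PRC1.6, had 2 of 12 genes called, both lower (16.7%, beside 7.65% of all genes). The median over these 12 genes was −0.12, and −0.0478 without siDAB2IP replicate 3. RYBP, a Polycomb subunit, was at 17.8, 19.2 and 19.7 CPM in siControl and at 11.3, 10.6 and 7.71 CPM in siDAB2IP, without overlap (log2 fold change −0.93, edgeR adjusted p = 0.00654). TFDP1, the dimer partner of E2F proteins, had a log2 fold change of −0.52 (edgeR adjusted p = 0.00784).

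MYC protein is short-lived, and 27 genes for its degradation, phosphorylation and stabilization were examined. Of these, 8 were called, all lower (29.6%, beside 7.65% of all genes called lower), and the list median was −0.21. Without siDAB2IP replicate 3 the median was −0.0864, and the 3 limma fits called 5, 5 and 2 lower. SKP2, a ubiquitin ligase subunit that is known to act on MYC, was at 31.3, 37.8 and 42.2 CPM in siControl and at 21.1, 21.4 and 20.4 CPM in siDAB2IP. The siDAB2IP libraries were nearly level and all below the controls (log2 fold change −0.82, edgeR adjusted p = 0.00433). GSK3B, a kinase known to mark MYC for degradation, was at 82.6, 72.8 and 72.9 CPM and at 52.5, 52.2 and 47.5 CPM (log2 fold change −0.58, edgeR adjusted p = 0.00541). PIM3, a kinase of a family known to stabilize MYC, fell from a mean of 250 to 139 CPM (log2 fold change −0.85). The other 5 were BTRC (−0.79), AURKA (−0.87), CIP2A (−0.74), CDK2 (−0.54) and AURKB (−1.19), the last with an edgeR adjusted p of 0.0494 and a DESeq2 adjusted p of 0.107. Several of the 8 are themselves genes of cell division, among them AURKA, AURKB, CDK2 and SKP2, and the list holds genes that lower MYC (SKP2, GSK3B) as well as genes that stabilize it (PIM3, CIP2A, AURKA), so its count has no direction for MYC protein. FBXW7, the best known ubiquitin ligase of MYC, had a log2 fold change of 0.34 (edgeR adjusted p = 0.245). The list is sensitive to the libraries used, since 4 genes were called when siControl replicate 2 or 3 or siDAB2IP replicate 1 was left out. Without siDAB2IP replicate 2 the number called lower was 10, as it was with the replicate block and without a filter.

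The targets of MYC were described in 2 lists. Of 49 genes of ribosome biogenesis, 1 was called higher and 3 lower, which is 2.04% and 6.12% beside 6.55% and 7.65% of all genes. The log2 fold change was positive for 23 and negative for 26, with a median of −0.03, which was 0.0219 without siDAB2IP replicate 3 and −0.101 without replicate 2. POLR3G, a subunit of RNA polymerase III, was at 12.3, 13.3 and 14.4 CPM in siControl and at 23.6, 27.4 and 26.9 CPM in siDAB2IP, without overlap (log2 fold change 0.96, edgeR adjusted p = 0.00229). DDX21, an RNA helicase of the nucleolus, was at 326, 342 and 336 CPM and at 197, 193 and 160 CPM, also without overlap (log2 fold change −0.87, edgeR adjusted p = 0.00171). TCOF1 (−0.83), a factor of ribosomal DNA transcription, and NPM1 (−0.64), the abundant nucleolar chaperone, were the other genes called lower. With the replicate block NCL and UBTF were called too, which makes 5 lower, and 5 were also called lower without siDAB2IP replicate 3. The summed CPM of the list was 6569 to 6712 in siControl and 5102 to 6101 in siDAB2IP, without overlap, and NPM1 alone went from a mean of 1145 to 733 CPM.

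Of 40 metabolic genes that MYC is known to activate, 1 was called higher (CTPS1, a pyrimidine synthesis enzyme, log2 fold change 0.37) and 1 lower (TFAM, a mitochondrial DNA factor, −0.66), which is 2.5% each beside 6.55% and 7.65% of all genes. The list median was −0.04, and it ranged from −0.118 without siControl replicate 3 to 0.0662 without siDAB2IP replicate 3. CTPS1 was at 90.6, 96.0 and 106 CPM in siControl and at 116, 126 and 137 CPM in siDAB2IP, without overlap, but was not called without siControl replicate 1, 2 or 3 or without siDAB2IP replicate 1 or 2. With the replicate block 2 were called higher and 5 lower, and the additional genes were DCTPP1 on the higher side and SHMT2, SLC7A5, SLC3A2 and LDHA on the lower. SLC7A5, an amino acid transporter, was at 2645, 2386 and 1958 CPM in siControl and at 1836, 1246 and 654 CPM in siDAB2IP. It was lowest in siDAB2IP replicate 3, and the groups did not overlap (log2 fold change −0.90, edgeR adjusted p = 0.0725 without and 0.00643 with the block). The median log2 difference of the 40 genes to the siControl mean was 0.01, 0.06 and −0.25 in siDAB2IP replicates 1, 2 and 3. Without siDAB2IP replicate 1 the number called lower was 4, and without replicate 3 it was 2.

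The list of genes that MYC is known to repress moved in both directions: of 15 tested, 3 were called higher and 4 lower (20.0% and 26.7%, beside 6.55% and 7.65% of all genes), with a median of −0.10. The median was 0.0123 without siDAB2IP replicate 3 and −0.210 without siDAB2IP replicate 1. CDKN1A, the cyclin-dependent kinase inhibitor p21, was at 149, 147 and 148 CPM in siControl and at 369, 454 and 739 CPM in siDAB2IP. All siDAB2IP libraries lay far above the controls (log2 fold change 1.81, SE 0.22, edgeR adjusted p = 0.00135). CCND1, the G1 cyclin, had a log2 fold change of 1.14, and GADD45A, a stress-response gene, had 0.49. GAS1, a growth arrest gene, was at 61.7, 59.4 and 67.4 CPM in siControl and at 28.1, 24.4 and 23.0 CPM in siDAB2IP, without overlap (log2 fold change −1.32, edgeR adjusted p = 0.000222). CDKN2C (−1.22), another kinase inhibitor, CLU (−0.78), a secreted chaperone, and NDRG1 (−0.52), a differentiation-related gene, were the others called lower. Without siControl replicate 1 the number called lower was 2, and without siControl replicate 2 it was 1. These genes are also regulated by factors outside the network, whose part was not tested.

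**Figure D5:**
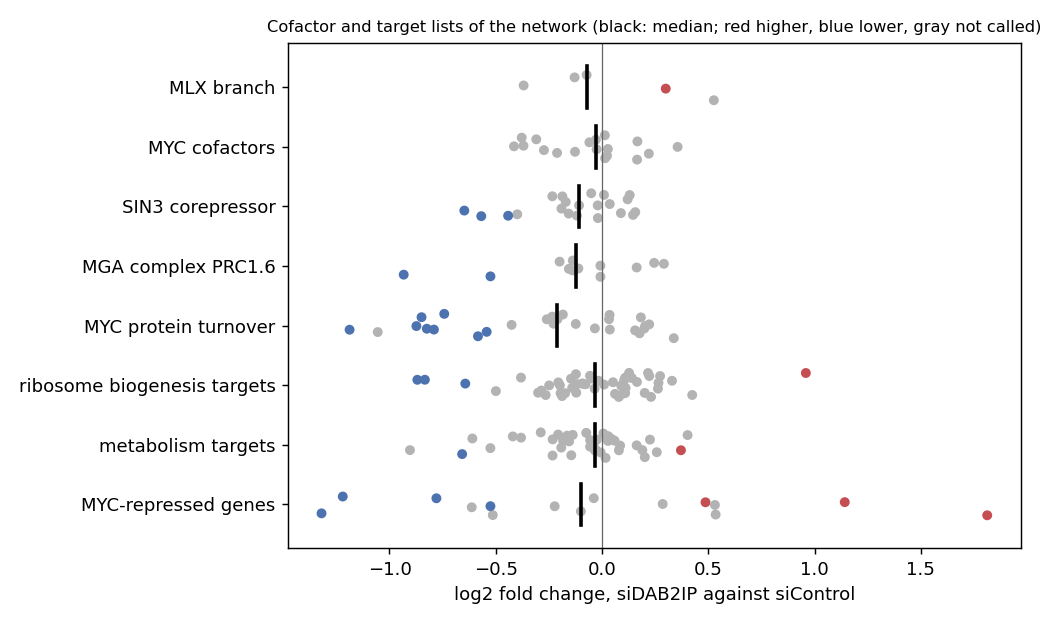
Log2 fold change of siDAB2IP against siControl (x axis) for each tested gene of 8 lists (y axis), in red where called higher, in blue where called lower and in gray otherwise, with the list median as a black bar. The medians lie between −0.21 (MYC protein turnover) and −0.03, and called genes are found on both sides only for ribosome biogenesis, metabolism and MYC-repressed genes.

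The genes whose log2 CPM was most like that of MXD3 over the 6 libraries were CEP57, a centrosomal gene (Pearson r = 0.999), NNMT, a methyltransferase of nicotinamide (0.999), and CIZ1, a DNA replication factor (0.998), among 9437 genes with a mean of at least 10 CPM. All 3 were called lower (log2 fold changes −0.95, −0.59 and −0.59). The 6 points come from the same libraries and fall into the same 2 groups for every called gene, and r was above 0.95 for 357 genes, so these likenesses are a description.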

How the data were processed

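RNA-Seq libraries of MCF10A cells (3 siControl, 3 siDAB2IP) were prepared and sequenced by Novogene on a NovaSeq 6000 (PE150). The authors deposited whole-number counts per gene, without normalization, and FPKM values, which they computed from these counts with gene length and a scaled library total. The submitters' processing notes name hg38, STAR 2.6.1d, featureCounts 1.5.0-p3, DESeq2 1.20.0 and edgeR 3.24.3; the strand setting is not given in the sources used here. Of the 58735 genes, 58724 matched GENCODE 29 in start, end and strand, and exon overlaps were taken from that annotation.

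Counts were tested in R 4.3.3 with edgeR 4.0.16 (filterByExpr, TMM, glmQLFit, glmQLFTest, Benjamini-Hochberg adjustment over 15430 genes, called at an adjusted p under 0.05). Standard errors and 95% intervals come from the same fit. CPM and FPKM are given as mean ± SD, and single values were compared by exact permutation tests. The labels do not say whether replicates were separate cultures, so p-values measure the spread between these libraries, which may be technical. The scripts were tested on simulated data.

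The members and lists were chosen with earlier results of these data known. Named were all members, DAB2IP, the markers, the called genes of each list (at most 10), genes overlapping a member on the other strand, and the 3 genes most like the called member with the smallest p. RAB24, SNRNP27 and PVT1, and the list genes not called, were named after their values were seen.

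After removal of group means, log2 CPM of libraries with the same replicate number correlated at 0.26, 0.15 and 0.25, and with different numbers at −0.28 to 0.02. The deviations within a group cancel out after this removal, so positive values at the same number push the others down. With the positive values at the same number, same-numbered libraries may be pairs. The deposited column names share a letter (A, B or C) between the libraries of a replicate number. Pairing remains an inference, as the labels do not say what a number or letter stands for. The reported fit and the permutation tests are unpaired, and the pairing enters only in the fit with a replicate block. Alternatives were DESeq2 1.42.0, its size factors, library size only, no filter, at least 10 counts in every library, a replicate block, limma 3.58.1 on log2(FPKM + 1) and log2(FPKM + 0.1) with a mean FPKM of at least 1, log2(FPKM + 1) for the 29567 genes with a count, and leaving out each library. Fold changes on the log2(FPKM + 1) scale understate those of low genes. The value of 1 mammary epithelial marker is not reported here.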

Additional observations from a re-analysis of the deposited data

How the results depend on the processing

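The 15 alternatives kept the direction of DAB2IP, MYC, MXD1, MXD3, MXD4, MXI1, MGA, MLX and, in the 12 that tested it, MYCL. The count of all genes called (2192) was 1417 with limma on log2(FPKM + 0.1), 378 with limma on log2(FPKM + 1) of every gene that had a count (the unfiltered limma fit), 3233 with the replicate block, and 723 to 2524 when a library was left out. The number of members called higher was 0 in all 3 limma fits, where MXD1 was not called, and the number called lower was 0 with the unfiltered limma fit. Leaving out a library gave 0 to 1 members higher and 0 to 1 lower. Metabolism genes called higher were 0 in the 3 limma fits, 2 with the replicate block and 0 to 1 without a library. Those called lower were 3 with DESeq2, 5 without a filter, 5 with the replicate block, 0 with the unfiltered limma fit and 1 to 4 without a library. Ribosome biogenesis genes called lower were 5 with DESeq2, without a filter and with the replicate block, 1 with the unfiltered limma fit and 2 to 5 without a library, and 2 were called higher with scaling by library size only and 1 whichever library was left out. The log2 fold change of MAX turned to 0.029 with scaling by library size only and ranged from −0.052 to 0.0098 without a library, and that of MNT ranged from −0.063 to 0.10. The cause was not tested for any of these changes. The replicate block changed no call of a member, of DAB2IP or of MLX. Low counts limit MYCL, whose 95% interval of the log2 fold change was wide (−1.94 to 0.35), and MYCN, which was not tested.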

Other observations

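PVT1, the noncoding RNA gene next to MYC (chr8:127794533-128101253, plus strand), was at 33.2, 31.1 and 35.2 CPM in siControl replicates 1, 2 and 3 and at 41.1, 34.6 and 73.3 CPM in siDAB2IP replicates 1, 2 and 3. The groups overlapped, since siDAB2IP replicate 2 (34.6) lay below siControl replicate 3 (35.2), and siDAB2IP replicate 3 stood apart from the rest. The log2 fold change was 0.58 (SE 0.23, edgeR adjusted p = 0.126, and 0.0542 with the replicate block), beside 0.06 for MYC.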
